A study of Mus musculus with 8 samples.

Results

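The genes of mitosis and of the G2/M stage of the cell cycle were followed through myogenic differentiation of muscle stem cells (satellite cells) with and without Dnmt3a, which encodes a de novo DNA methyltransferase. The list holds 42 genes chosen by name, of 31732 genes with a usable probe on the array. They were found through the gene name that the array files give to each probe, and 59 probes carry one of these names. Cells were isolated from the EDL (extensor digitorum longus muscle) of 8-week-old Dnmt3a-KO mice and wild-type (WT) littermates, all labelled male. After growth in culture, equal numbers of cells were replated and kept in differentiation medium, in which satellite cell progeny leave the cell cycle and fuse into myotubes. Total RNA was labelled with Cy3 and hybridised after 2, 4, 5 and 6 days, 1 array for each genotype and day, so that 4 Dnmt3a-KO arrays were set against 4 WT arrays. The labels give neither the Cre driver or allele of the knockout nor whether the days came from separate animals or cultures, so p-values here measure the spread of the arrays between days, which may be technical.

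A dividing cell switches on the mitotic genes late in its cycle. Cyclin B with Cdk1 starts mitosis, kinetochores tie chromosomes to the spindle while the checkpoint waits for every attachment, and the anaphase-promoting complex with its activator Cdc20 then ends mitosis by having cyclins and securin destroyed. Genes of this set are transcribed under FoxM1, B-Myb and the MuvB core, and the DREAM complex represses them in cells that have left the cycle, as differentiating muscle cells do. In RNA of a whole culture, fewer cycling cells and less mitotic RNA per cycling cell cannot be told apart.

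Dnmt3a signal in Dnmt3a-KO arrays was 46.2%, 19.8%, 21.7% and 19.1% of that in WT arrays on days 2, 4, 5 and 6. The labels do not place this probe inside or outside the deletion. Satellite cell and myoblast markers were above background on every array for 5 of 6 genes, all but Myf5. Both day 2 arrays lay on a slide of their own and were read with another scanner model and software version than the other 6 arrays. On the day 2 arrays the Y-linked genes Uty, Kdm5d, Ddx3y and Eif2s3y were detected and Xist was not, and on the 6 later arrays the reverse held, although the labels call all mice male. Within a day both genotypes matched in this. The share of spots well above background was 61.6% to 67.4% per array, and precision is limited by there being 8 arrays.

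On days 2, 4 and 6 the mitotic genes had lower signals in Dnmt3a-KO than in WT cells, and on day 5 they were level. Signals are given as the scaled signal, the processed signal of a probe divided by the 75th percentile of its array. Differences are log2 of the scaled signal in Dnmt3a-KO minus that in WT. Over the 39 genes that were above background on at least 4 of 8 arrays, the median differences for days 2, 4, 5 and 6 were -0.93, -1.21, 0.01 and -0.96. The same medians over all 19674 genes tested were 0.01, -0.02, -0.05 and 0.02. As folds, the median mitotic gene was 1.90-fold lower on day 2, 2.32-fold lower on day 4 and 1.94-fold lower on day 6. By the 1 probe used per gene, all 39 genes were lower on days 2, 4 and 6, as were 17.5% of all genes tested. Of the 39, 19 were lower on all 4 days, as were 11.5% of all genes. These counts and those below include 6 genes that were not above background on every array. For Cdc25c neither array was above background on day 6, so its lower signal on that day was not measured.

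**Figure D1:**
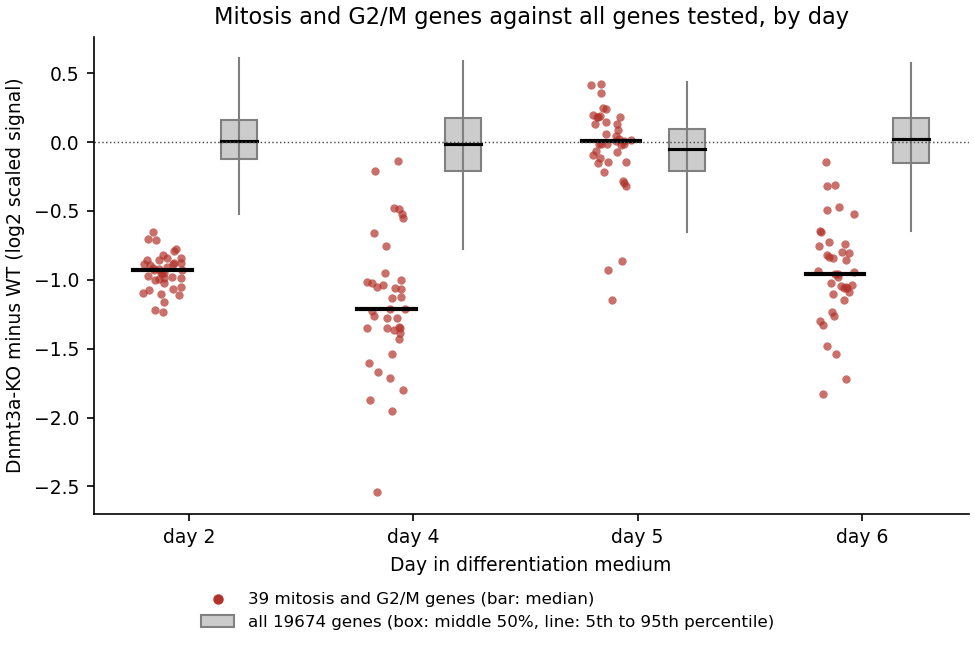
Difference between Dnmt3a-KO and WT in log2 scaled signal (y axis) on each day in differentiation medium (x axis). Points are the 39 mitosis and G2/M genes with their median as a bar, and grey boxes show all 19674 genes tested. The medians of the points are -0.93, -1.21, 0.01 and -0.96, and the points lie below 0 on days 2, 4 and 6.

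A Dnmt3a-KO signal of 0.5 times WT or less was found for 11 of 39 mitotic genes on day 2, against 1.14% of all genes. On day 4 it was found for 30 of 39, against 3.08%. On day 5 the single gene was Ckap2l, against 1.82% of all genes, and on day 6 there were 17, against 1.89%. Cdk1, Bub1, Ckap2l, Mki67, Pbk and Melk passed that fold on each of days 2, 4 and 6, and 0.188% of all genes did. For Ckap2l the Dnmt3a-KO array was not above background on days 4 and 6. A further Cdk1 probe, above background on 4 arrays, differed by -0.0144 on day 4 and -0.625 on day 6. With 1 array per genotype and day these counts carry no test. They were 2, 0, 0 and 0 on days 2, 4, 5 and 6 when normexp correction, an offset of 50 intensity units and quantile scaling were used together, and 15, 27, 1 and 17 with quantile scaling alone. With the mean of all probes of a gene they were 10, 25, 1 and 13.

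The mean difference over the 4 days was below 0 for all 39 genes, and for 10423 of all 19674 genes tested. The median over the 39 genes was -0.78 against -0.01 over all genes, a 1.71-fold lower signal. By limma with day as a block, 0 of 39 passed an adjusted p of 0.05, and 0.0102% of all genes, 2 of 19674, did. Their limma adjusted p ran from 0.0645 to 0.54. Without adjustment 34 of 39 were lower at p under 0.05, against 6.7% of all genes. Without day 5 there were 39 such genes, without day 2 and without day 6 there were 16, and without day 4 there were 18. Of all 19674 genes there were 1230 without day 5, 1452 without day 2, 909 without day 6 and 745 without day 4. The median difference was -0.40 under the normexp setting and -1.02 without day 5. The SD over days was between 0.10 and 0.95 among the 39 genes, and day 5 stood apart from the others in most of them.

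**Figure D2:**
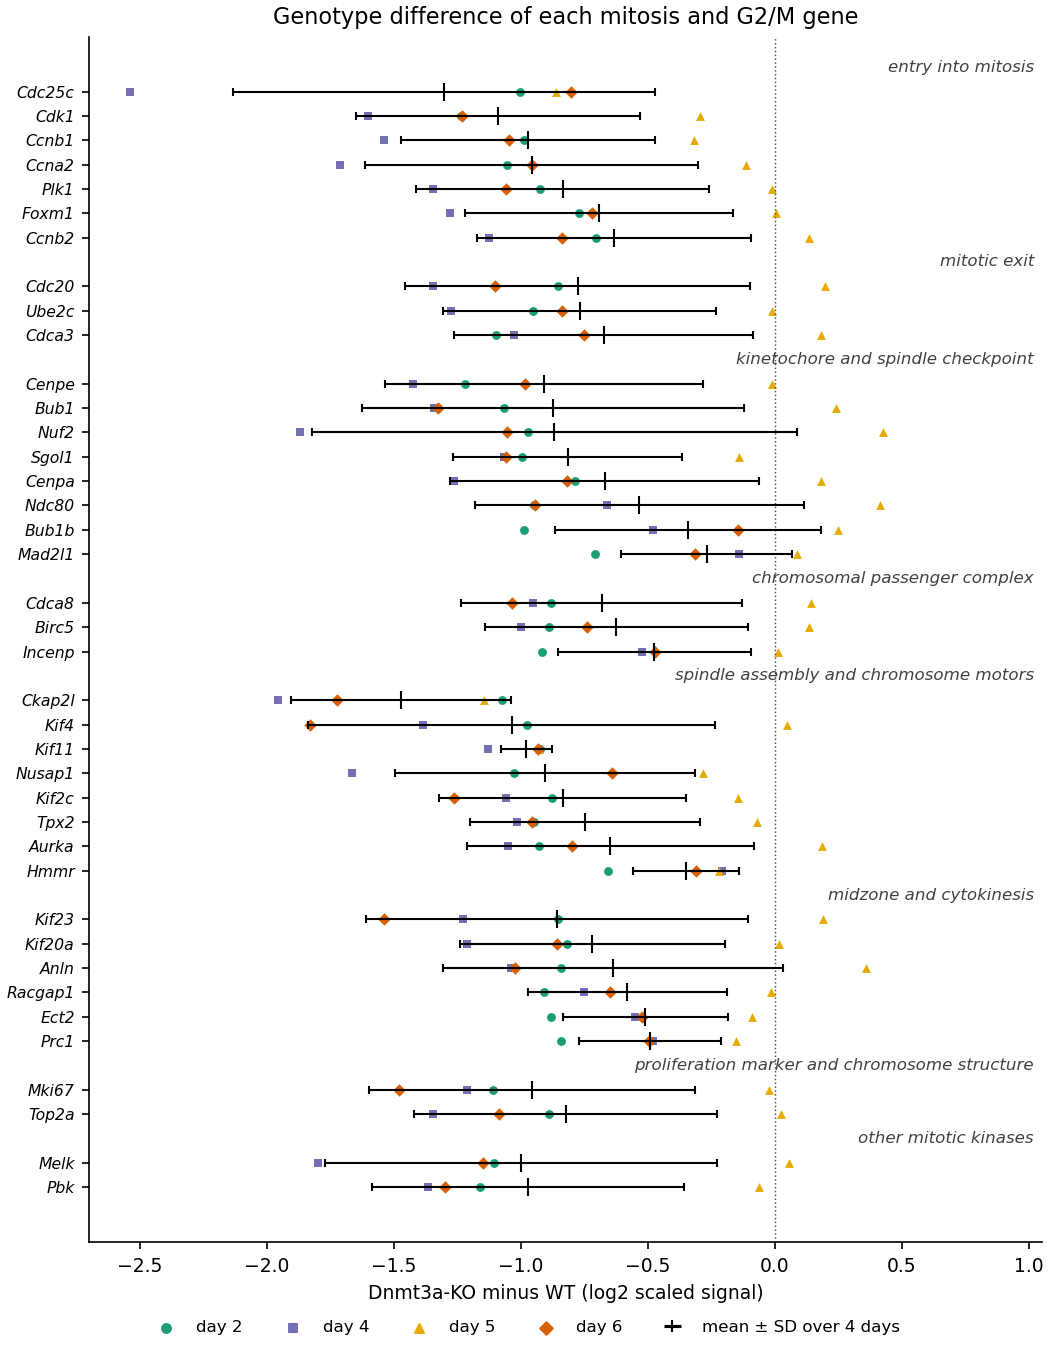
Difference between Dnmt3a-KO and WT in log2 scaled signal (x axis) for each of the 39 genes (rows, grouped by role). Symbols are the 4 days, and the bar with caps is the mean with its SD over the 4 days. The day 5 triangles sit within 0.5 of 0 for 36 of 39 genes, and those of Cdc25c, Kif11 and Ckap2l sit below -0.5. For Cdc25c and Kif11 the Dnmt3a-KO array was not above background on day 5. Over all genes tested the 5th and 95th percentiles on day 5 were -0.654 and 0.435.

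Of the 3 genes outside the fit, Aurkb, the catalytic kinase of the chromosomal passenger complex, was above background on 0 of 8 arrays. Ttk, the checkpoint kinase also called Mps1, and Cenpf, a kinetochore protein, were above background on both day 2 arrays only. On day 2 Ttk had a scaled signal of 0.0286 in Dnmt3a-KO cells and 0.0601 in WT cells, and Cenpf had 0.0114 and 0.0272. Both were thus lower in Dnmt3a-KO cells on the 1 day on which they could be measured. Of the 39 genes in the fit, 33 were above background on all 8 arrays. The other 6 were Cdc25c, Kif11, Kif2c, Kif4, Ckap2l and Kif23. In these a fold against a dim array is called nominal, since the dim signal was not measured and could lie above the value used. Kif11, Kif4 and Ckap2l were above background on all 4 WT arrays and on 2 Dnmt3a-KO arrays.

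RefSeq promoters of GRCm38.p6, 300 bases of which 250 lie before the gene's start, were matched for 34 of the 42 genes with 36 promoters, all but Ccna2, Cdc25c, Foxm1, Aurkb, Incenp, Tpx2, Kif20a and Pbk. They were searched on both strands for the cell cycle genes homology region (CHR, letters TTTGAA or TTCGAA), an element through which the DREAM and MuvB complexes are known to bind G2/M genes, and for the CCAAT box (letters CCAAT), the site of NF-Y. CHR letters were in 29 of 36 promoters, 80.6%, against 19.2% of all 32851 promoters of the same length. The CCAAT letters were in 77.8% of the mitotic promoters and 37.4% of all, and both kinds were in 72.2% and 7.52%, with overlapping letters in 1 mitotic promoter. Within 50 bases of the start on either side, CHR letters began in 75% of the mitotic promoters and 5.31% of all. The following stretches are the 100 bases just before the start of 7 genes, read 5′ to 3′ on the strand of the gene, with the CHR and CCAAT letters of either strand in capitals. Cdk1, Cdc20, Ube2c and Top2a are shown because the letters of both elements fall inside the stretch. Kif11 and Ckap2l are shown because their signal was lower in Dnmt3a-KO cells on day 5 as well, nominally so for Kif11. Ccnb1 is shown because its whole window holds CCAAT letters and no CHR letters.
Cdk1, chr10:69352913-69353012, minus strand: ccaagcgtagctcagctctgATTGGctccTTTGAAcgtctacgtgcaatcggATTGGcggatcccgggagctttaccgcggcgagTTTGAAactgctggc
Cdc20, chr4:118437344-118437443, minus strand: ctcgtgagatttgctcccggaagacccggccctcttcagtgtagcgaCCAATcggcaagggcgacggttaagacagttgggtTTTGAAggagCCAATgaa
Ube2c, chr2:164769829-164769928, plus strand: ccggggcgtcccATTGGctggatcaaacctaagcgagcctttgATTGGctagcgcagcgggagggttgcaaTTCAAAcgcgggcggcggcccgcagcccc
Top2a, chr11:99024190-99024289, minus strand: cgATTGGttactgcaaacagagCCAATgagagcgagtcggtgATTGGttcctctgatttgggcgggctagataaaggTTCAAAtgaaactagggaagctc
Kif11, chr19:37376282-37376381, plus strand: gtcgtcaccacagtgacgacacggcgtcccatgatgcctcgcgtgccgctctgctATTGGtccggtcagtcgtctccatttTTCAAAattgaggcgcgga
Ckap2l, chr2:129297213-129297312, minus strand: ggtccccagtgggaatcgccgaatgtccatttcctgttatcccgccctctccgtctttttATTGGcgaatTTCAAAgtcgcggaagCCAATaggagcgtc
Ccnb1, chr13:100786487-100786586, minus strand: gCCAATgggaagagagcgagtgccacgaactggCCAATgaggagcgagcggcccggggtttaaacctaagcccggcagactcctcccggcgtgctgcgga

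The GC box letters GGGCGG were in 83.3% of the mitotic promoters and 35.7% of all. The E2F letters, TTTCCCGC, TTTGGCGC, TTTCGCGC or TTTCCCGG, were in 5.56% of the mitotic promoters and 3.07% of all. Of 49 promoters matched for 43 other G2/M genes, 63.3% held the CHR letters, 46.9% both CHR and CCAAT letters and 16.3% the E2F letters. Of 38 promoters matched for 32 genes of the G1/S transition and DNA replication, 15.8% held the CHR letters, 13.2% both and 31.6% the E2F letters. Promoters without the CHR letters were those of Ccnb1, Cenpe, Mad2l1, Nuf2, Birc5, Nusap1 and Melk. Their mean differences between Dnmt3a-KO and WT ran from -0.999 in Melk to -0.27 in Mad2l1, so they span most of the range of the whole list. These are matches of letters in a fixed window, and no binding was measured.

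The 7 genes of entry into mitosis lay below WT on each of days 2, 4 and 6, though neither Cdc25c array was above background on day 6. Their median differences were -0.99, -1.54, -0.11 and -0.96 on days 2, 4, 5 and 6. Plk1, the polo-like kinase that drives mitotic entry and spindle assembly, had scaled signals of 2.45, 0.324, 0.529 and 0.317 in Dnmt3a-KO cells on days 2, 4, 5 and 6, against 4.64, 0.825, 0.533 and 0.662 in WT cells. The Dnmt3a-KO array was the dimmer one on days 2, 4 and 6, and on day 5 the genotypes were alike. The mean difference of Plk1 was -0.84 ± 0.58 (SD over 4 days), a 1.79-fold lower signal (limma adjusted p = 0.299). Its probe lies on chromosome 7 at 129313220 to 129313279 on the plus strand in mm9, the build of the array files, and probes were not placed in exons.

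Cdk1, the kinase that starts mitosis, had scaled signals of 0.342, 0.0524, 0.0971 and 0.0685 in Dnmt3a-KO cells and 0.807, 0.159, 0.119 and 0.161 in WT cells. It was 2.36-fold, 3.03-fold and 2.35-fold lower on days 2, 4 and 6 and 1.23-fold lower on day 5, with a mean difference of -1.09 ± 0.56. A further Cdk1 probe averaged -0.54, and another was above background on 0 arrays. Its partners Ccnb1 and Ccna2 averaged -0.97 ± 0.50 and -0.96 ± 0.66, and Ccnb2 averaged -0.63 ± 0.54. Foxm1, the transcription factor of the G2/M genes, averaged -0.69 ± 0.53 and was level with WT on day 5, at a difference of 0.01. A further Foxm1 probe averaged -0.16, and the mean of both probes was -0.43.

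Cdc25c, a phosphatase that activates Cdk1, passed the filter mainly through its WT arrays. Its scaled signals were 0.0613, 0.00763, 0.0137 and 0.00832 in Dnmt3a-KO cells and 0.123, 0.0444, 0.0250 and 0.0145 in WT cells. Only day 2 was above background in Dnmt3a-KO cells, against days 2, 4 and 5 in WT cells. It was 2.00-fold lower on day 2, a nominal 5.82-fold lower on day 4 and a nominal 1.82-fold lower on day 5. On day 6 neither array was above background. The mean difference of -1.30 ± 0.83 rests on signals not above background, and it was -0.74 with a constant in place of the floor and -0.18 under the normexp setting.

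The 3 genes grouped under mitotic exit, Cdc20, Ube2c and Cdca3, had median differences of -0.95, -1.28, 0.18 and -0.84 on days 2, 4, 5 and 6. Cdc20, the activator of the anaphase-promoting complex, had scaled signals of 3.573, 0.6296, 1.263 and 0.6686 in Dnmt3a-KO cells and 6.453, 1.603, 1.103 and 1.437 in WT cells. On day 5 the Dnmt3a-KO array was the brighter one by a small margin, and on the other days it was the dimmer one. The mean difference of Cdc20 was -0.78 ± 0.68 (limma adjusted p = 0.347), and its probe lies on chromosome 4 at 118105534 to 118105593 on the minus strand in mm9. Ube2c, the ubiquitin-conjugating enzyme of that complex, averaged -0.77 ± 0.54. Cdca3, for which no role in mitotic exit is claimed here, averaged -0.67 ± 0.59. Their promoter stretches, that of Cdc20 and that of Ube2c, are among those shown above.

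Of the 10 genes of the kinetochore and spindle checkpoint, 8 were fitted, with median differences of -0.98, -1.16, 0.21 and -0.96. This group held both genes with the smallest mean difference of the list. Mad2l1, the checkpoint protein Mad2, had scaled signals of 1.03, 0.586, 0.699 and 0.601 in Dnmt3a-KO cells and 1.69, 0.646, 0.658 and 0.747 in WT cells. It was lowest against WT on day 2 and nearer to WT on the later days, with a mean difference of -0.27 ± 0.34. A further Mad2l1 probe, above background on 4 arrays, averaged -0.25. Another, above background on all 8 arrays, had differences of -0.63, 0.02, -0.20 and 0.10 on days 2, 4, 5 and 6. Bub1b, the checkpoint kinase-like protein BubR1, had 0.261, 0.0892, 0.101 and 0.0937 in Dnmt3a-KO cells and 0.517, 0.124, 0.0848 and 0.104 in WT cells. Its Dnmt3a-KO values were lower on days 2, 4 and 6 and higher on day 5, with a mean difference of -0.34 ± 0.52 (limma adjusted p = 0.54). Without day 2 its mean was -0.13, and under the normexp setting -0.19.

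Nuf2 and Ndc80 belong to the Ndc80 complex, which holds the microtubule at the kinetochore. Nuf2 had scaled signals of 0.281, 0.0242, 0.0625 and 0.0335 in Dnmt3a-KO cells and 0.551, 0.0888, 0.0466 and 0.0696 in WT cells. It was 3.66-fold lower on day 4 and 1.34-fold higher on day 5, and its SD over days of 0.95 was the largest of the list. Ndc80 averaged -0.54 ± 0.65, with 0.41 on day 5. The checkpoint kinase Bub1 averaged -0.87 ± 0.75 with 0.24 on day 5, the centromeric histone Cenpa -0.67 ± 0.61, the kinesin Cenpe -0.91 ± 0.63, and Sgol1 (Sgo1), the protector of centromeric cohesion, -0.82 ± 0.45.

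In the chromosomal passenger complex, which corrects faulty attachments and steers cytokinesis, the 3 measured genes had median differences of -0.89, -0.95, 0.13 and -0.74. Birc5, or survivin, had scaled signals of 4.34, 1.59, 2.39 and 1.69 in Dnmt3a-KO cells and 8.06, 3.19, 2.18 and 2.81 in WT cells. Again the Dnmt3a-KO array was dimmer on days 2, 4 and 6 and slightly brighter on day 5, with a mean difference of -0.62 ± 0.52 (limma adjusted p = 0.34). Its probe lies on chromosome 11 at 117716978 to 117717037 on the plus strand in mm9, and 2 further probes averaged -0.77 and -0.74. Incenp, the scaffold of the complex, averaged -0.48 ± 0.38, and Cdca8, or borealin, -0.68 ± 0.55.

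**Figure D3:**
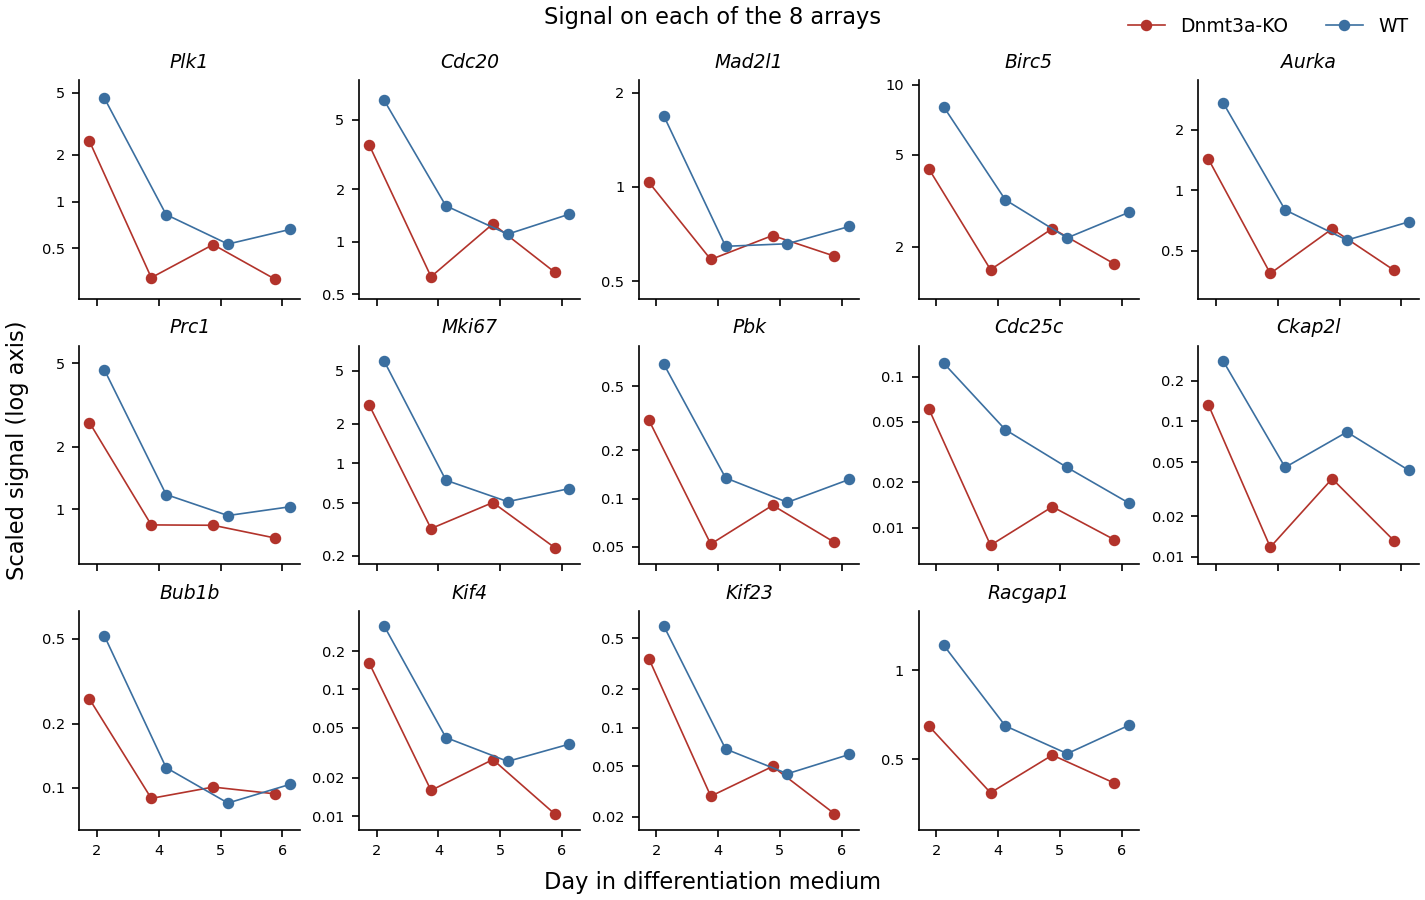
Scaled signal (y axis, log scale, its own range for each gene) by day in differentiation medium (x axis) for 14 genes on each of the 8 arrays. Dnmt3a-KO is red and drawn left of WT in blue, with 1 point per array. For Plk1 the Dnmt3a-KO points are 2.45, 0.324, 0.529 and 0.317 and the WT points 4.64, 0.825, 0.533 and 0.662, and most genes show the same meeting of the lines on day 5.

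The 8 genes of spindle assembly and chromosome motors had median differences of -0.94, -1.09, -0.18 and -0.95. Aurka, the kinase of spindle poles, had scaled signals of 1.43, 0.384, 0.641 and 0.399 in Dnmt3a-KO cells and 2.71, 0.797, 0.563 and 0.695 in WT cells. Its difference was below 0 on days 2, 4 and 6 and 0.19 on day 5, with a mean of -0.65 ± 0.57 (limma adjusted p = 0.351). Its probe lies on chromosome 2 at 172181726 to 172181785 on the minus strand in mm9. Tpx2, which activates Aurka on the spindle, averaged -0.75 ± 0.45, and Nusap1, a microtubule bundling protein, -0.91 ± 0.59. Hmmr, a spindle protein, was nearer to WT, at -0.35 ± 0.21.

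Ckap2l, a spindle pole protein also called radmis, was above background on days 2 and 5 in Dnmt3a-KO cells and on all 4 days in WT cells. Its scaled signals were 0.132, 0.0118, 0.0377 and 0.0132 in Dnmt3a-KO cells and 0.278, 0.0458, 0.0834 and 0.0435 in WT cells. All 4 days were lower in Dnmt3a-KO cells: 2.10-fold on day 2, a nominal 3.88-fold on day 4, 2.21-fold on day 5 and a nominal 3.30-fold on day 6. The mean difference was -1.47 ± 0.43 (limma adjusted p = 0.102), and the probe lies on chromosome 2 at 129094658 to 129094717 on the minus strand in mm9. That mean contains signals not above background on days 4 and 6, and it was -0.95 with a constant in place of the floor and -0.32 under the normexp setting. Its adjusted p was under 0.05 with trend and robust variance and with the constant, and not under the normexp setting, and Ckap2l was not among the genes above background on all 8 arrays.

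Kif11, the kinesin Eg5 that pushes spindle poles apart, was lower in Dnmt3a-KO cells on day 5 as on the other days. Its scaled signals were 0.130, 0.0261, 0.0205 and 0.0149 in Dnmt3a-KO cells and 0.246, 0.0571, 0.0390 and 0.0285 in WT cells. The differences were -0.93, -1.13, -0.93 and -0.93 on days 2, 4, 5 and 6, with a mean of -0.98 ± 0.10 (limma adjusted p = 0.0645). On days 5 and 6 its Dnmt3a-KO arrays were not above background, so the folds of 1.90 and 1.91 are nominal. The mean, its SD and its p rest in part on unmeasured signals. The mean was -0.65 with a constant in place of the floor and -0.22 under the normexp setting. It passed 0.05 with trend and robust variance and with array weights, not under the normexp setting, and Kif11 was not among the genes above background on all 8 arrays. The probe lies on chromosome 19 at 37495755 to 37495814 on the plus strand in mm9.

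Kif4, a chromokinesin, had scaled signals of 0.161, 0.0159, 0.0279 and 0.0104 in Dnmt3a-KO cells and 0.318, 0.0417, 0.0270 and 0.0370 in WT cells. It was 1.97-fold lower on day 2, a nominal 2.62-fold lower on day 4, level on day 5 and a nominal 3.29-fold lower on day 6. Kif2c, the microtubule-depolymerising kinesin MCAK, averaged -0.84 ± 0.49, with a nominal 2.40-fold on day 6.

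The 6 genes of the midzone and cytokinesis had median differences of -0.85, -0.90, 0.00 and -0.75. Prc1, which bundles midzone microtubules, had scaled signals of 2.60, 0.844, 0.841 and 0.731 in Dnmt3a-KO cells and 4.67, 1.18, 0.935 and 1.03 in WT cells. It was lower on all 4 days, with a mean difference of -0.49 ± 0.28 (limma adjusted p = 0.282), and its probe lies on chromosome 7 at 87461048 to 87461107 on the plus strand in mm9. Racgap1, a subunit of centralspindlin, had 0.649, 0.385, 0.517 and 0.416 in Dnmt3a-KO cells and 1.22, 0.649, 0.523 and 0.652 in WT cells. Apart from day 5 its Dnmt3a-KO values lay below WT, at a mean difference of -0.58 ± 0.39.

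Kif23, the motor subunit of centralspindlin, had scaled signals of 0.345, 0.0290, 0.0497 and 0.0212 in Dnmt3a-KO cells and 0.625, 0.0680, 0.0436 and 0.0616 in WT cells. It was 1.81-fold lower on day 2, 2.34-fold lower on day 4, 1.14-fold higher on day 5 and a nominal 2.91-fold lower on day 6. Kif20a, a kinesin of the midzone, averaged -0.72 ± 0.52. Ect2, which acts in forming the cleavage furrow, averaged -0.51 ± 0.32, and Anln, the scaffold protein anillin, -0.64 ± 0.67.

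Mki67, the proliferation marker Ki-67 that coats mitotic chromosomes, had scaled signals of 2.76, 0.322, 0.507 and 0.231 in Dnmt3a-KO cells and 5.96, 0.747, 0.514 and 0.646 in WT cells. It was lower on days 2, 4 and 6 and level on day 5, with a mean difference of -0.96 ± 0.64, a 1.94-fold lower signal (limma adjusted p = 0.295). Its probe lies on chromosome 7 at 142881591 to 142881650 on the minus strand in mm9. Top2a, the topoisomerase that untangles sister chromatids, averaged -0.82 ± 0.60. Pbk, a mitotic kinase, had 0.307, 0.0521, 0.0908 and 0.0534 in Dnmt3a-KO cells and 0.687, 0.134, 0.0947 and 0.132 in WT cells. Its course was that of Mki67, with a mean difference of -0.97 ± 0.61, and the kinase Melk averaged -0.999 ± 0.77.

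Of the 42 genes, 13 had several probes, with 17 further probes in all. Of these, 15 were above background on at least 4 arrays, and all 15 averaged lower in Dnmt3a-KO cells, between -1.14 and -0.16. Not all were lower on each of days 2, 4 and 6: a further Mad2l1 probe stood at 0.02 on day 4 and 0.10 on day 6. No spot of the probes used was saturated.

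The courses of the genotypes differed most between days 4 and 6. From day 2 to day 4 the median change of the 39 genes was -2.5 on the log2 scale in Dnmt3a-KO cells, a 5.67-fold lower signal, and -2.24 in WT cells, 4.72-fold lower. All 39 genes were lower on day 4 in either genotype. From day 4 to day 5 the median change was 0.76 in Dnmt3a-KO cells, with 36 of 39 genes higher on day 5, and -0.50 in WT cells, with 37 of 39 lower. From day 5 to day 6 it was -0.68 in Dnmt3a-KO cells, with 39 of 39 lower, and 0.30 in WT cells, with 33 of 39 higher. The share of all genes tested that moved the same way at each step was not counted. Their median log2 scaled signal was -0.9451, -1.003, -0.9756 and -1.004 on days 2, 4, 5 and 6 in Dnmt3a-KO cells. In WT cells it was -0.9308, -0.9627, -0.9689 and -0.9793. The slide and the scanner also changed from day 2 to day 4, and the slide from day 5 to day 6.

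In Dnmt3a-KO cells 36 of 39 genes were thus brighter on day 5 than on days 4 and 6, a pattern of 30.2% of all genes tested. In WT cells 32 of 39 were dimmer on day 5 than on days 4 and 6, a pattern of 27.6% of all genes. Both held for 31 of 39, and for 5.34% of all genes. The Dnmt3a-KO arrays of days 4 and 6 lay below all 3 WT arrays of days 4, 5 and 6 for 38 of 39 genes, all but Bub1b, and for 18% of all genes. These patterns were described after the values were seen and rest on 1 array per genotype and day, so they carry no test.

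**Figure D4:**
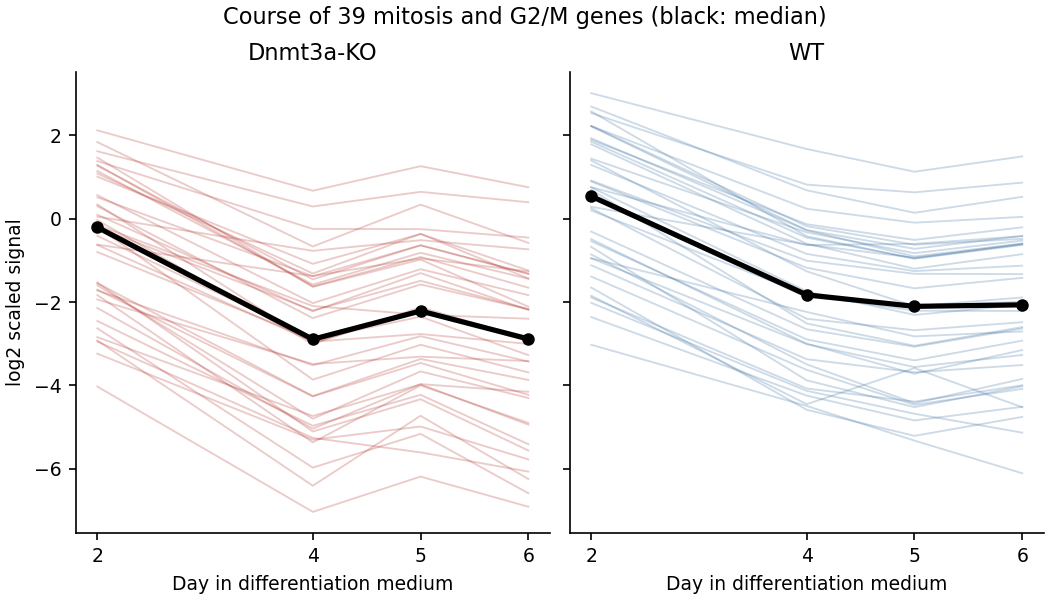
Log2 scaled signal (y axis) of the 39 genes by day in differentiation medium (x axis), in Dnmt3a-KO cells on the left and WT cells on the right. Thin lines are genes and the black line is their median. The black line stands at -0.21, -2.89, -2.21 and -2.88 on days 2, 4, 5 and 6 in Dnmt3a-KO cells and at 0.54, -1.83, -2.10 and -2.07 in WT cells.

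Over the 4 days the list was highest on day 2 in both genotypes. Both day 2 arrays were above all 6 later arrays for 38 of 39 genes, against 29.7% of all genes, and Racgap1 was the exception. The median slope was -0.62 log2 units per day, and 38 of 39 genes fell (limma with genotype as a covariate, adjusted p from 0.00791), against 19.4% of all genes falling and 45.4% changing either way. The steepest were Kif23, at -0.92 ± 0.18 per day (SE, limma adjusted p = 0.0135), and Kif4, at -0.88 ± 0.17 (limma adjusted p = 0.0132). Mad2l1 had a slope of -0.25 ± 0.08 (limma adjusted p = 0.0378) and Racgap1, which did not pass, one of -0.20 ± 0.07 (limma adjusted p = 0.0502). The slopes rest on day 2: without it the median slope was -0.05 with 0 of 39 genes past the threshold (1 of 39 fell at an unadjusted p under 0.05). With the slide as a block the median slope was 0.11 with 0 genes past the threshold. Days 4 and 5 shared a slide and day 6 had its own, so this block left only the step from day 4 to day 5. It cannot tell whether signals fell after day 2. Without day 5 the median was -0.61 and 1 of 39 passed. Under the normexp setting the median slope was -0.37. Day 2 differed from the later days in slide, scanner, software and sex-linked transcripts as well, so these cannot be told apart from the day.

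The median slope was -0.58 per day in Dnmt3a-KO cells and -0.64 in WT cells. The median of the genes' own slope differences was 0.09, and -0.00198 without day 5. The difference of slopes passed the limma threshold for 0 of 39 genes and 0% of all 19674 genes, with 0 of 39 at an unadjusted p under 0.05 and 218 of all genes. A straight line does not take up the day 5 values described above.

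Of 56 other G2/M genes, named apart from the 42, 47 were tested, and their median differences were -0.84, -0.67, -0.05 and -0.58 on days 2, 4, 5 and 6. Their mean was below 0 for 44 of 47, against 10423 of all 19674 genes tested. Of the 47, 0 passed the limma threshold (lowest adjusted p = 0.102), and 29 were lower at an unadjusted p under 0.05. Depdc1b averaged -1.10 ± 0.45, Cenpi, a protein of the inner kinetochore, -1.03 ± 0.42, and Dlgap5, a spindle protein, -0.998 ± 0.48. Zwint, a kinetochore protein, stood at 0.01 ± 0.16.

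The genes of the G1/S transition and DNA replication lay between the mitotic genes and all genes. The 37 tested of 39 had median differences of -0.80, -0.42, -0.02 and -0.36. On average 33 of 37 were below 0, against 10423 of all 19674 genes tested. None of the 37 passed the limma threshold (lowest adjusted p = 0.178), and 19 were lower at an unadjusted p under 0.05. Tk1, the thymidine kinase, averaged -0.86 ± 0.58, the helicase subunit Mcm3 -0.79 ± 0.40 and the histone chaperone subunit Chaf1b -0.73 ± 0.36, while the helicase subunit Mcm7 stood at -0.03 ± 0.25.

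The 23 genes of cell cycle exit and the DREAM complex, among them the Cdk inhibitors, pocket proteins and MuvB subunits, had median differences of 0.03, 0.05, 0.00 and 0.00. Of these, 11 were below 0 on average, against 10423 of all 19674 genes tested. Of the 23, 0 passed the limma threshold (lowest adjusted p = 0.282). At an unadjusted p under 0.05, 4 were lower and 1 higher, against 1319 lower and 1212 higher of all genes. The Cdk inhibitor Cdkn1c averaged -0.92 ± 0.70, with -0.05 on day 2 and -1.76 on day 4. The repressor E2f7 averaged -0.88 ± 0.55 and Mybl2, which encodes B-Myb, -0.63 ± 0.39, and both had their smallest difference on day 5, at -0.06 and -0.05. Ccng2, cyclin G2, stood at 0.00 ± 0.27.

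**Figure D5:**
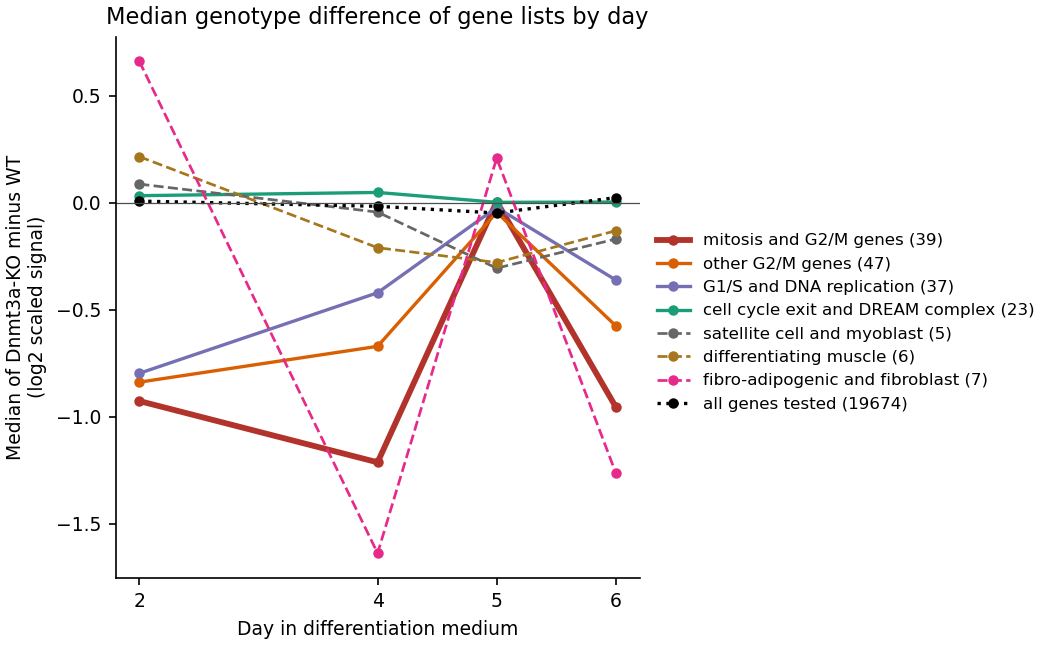
Median difference between Dnmt3a-KO and WT in log2 scaled signal (y axis) by day in differentiation medium (x axis) for gene lists, with the number of genes tested in brackets. Solid lines are cell cycle lists, dashed lines are cell type markers and the dotted line is all genes. The mitosis and G2/M genes lie at -0.93, -1.21, 0.01 and -0.96, and the fibro-adipogenic and fibroblast markers at 0.66, -1.64, 0.21 and -1.26.

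Markers of other cells that a culture could hold were read beside these values. Of the fibro-adipogenic and fibroblast list, 7 of 8 genes were tested, Lum being above background on no array, and their median differences were 0.66, -1.64, 0.21 and -1.26 on days 2, 4, 5 and 6. Their summed scaled signal was 6.38, 5.38, 37.4 and 10.6 in Dnmt3a-KO cells and 6.79, 19.8, 34.6 and 22 in WT cells, so that on days 4 and 6 the sum was lower in Dnmt3a-KO cells beside the mitotic genes. Of the 7 genes, 5 were lower on day 4, with Dcn at 0.87 and Pdgfra at 0.07, and 5 on day 6, with Ly6a at 1.01 and Pdgfra at 0.10. Col1a1, a fibrillar collagen, had differences of 2.25, -2.49, 0.21 and -1.26, and Pdgfra, a receptor that marks fibro-adipogenic cells, had 1.41, 0.07, 0.31 and 0.10. The part of such cells in the lower mitotic signal was not tested.

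Of the other marker lists, the Schwann and neural list had a median below 0 on day 4 alone. Its median differences were 0.26, -1.78, 0.25 and 0.08 on days 2, 4, 5 and 6, at a summed scaled signal of 0.415 in Dnmt3a-KO cells and 1.20 in WT cells on day 4, and 3 of its 5 genes were at least 2-fold lower on that day. Its part in the day 4 values of the mitotic genes was not tested. Median differences on days 2, 4, 5 and 6 were 0.09, -0.04, -0.31 and -0.17 for the satellite cell and myoblast list and 0.22, -0.21, -0.28 and -0.13 for the differentiating muscle list, whose 6 genes were above background on every array. In the satellite cell and myoblast list Pax7 was lower on all 4 days, at -0.41, -0.45, -1.42 and -0.68. Myod1, Cdh15, Des and Itga7 averaged 0.03, -0.22, -0.02 and -0.01 over the days. The part of Pax7-expressing cells in the lower mitotic signal was not tested. For the macrophage and leukocyte list the median differences were 0.03, -0.19, -0.05 and -0.22, with Cd68 above background on no array. The endothelial list gave 0.00, -0.21, -0.25 and 0.12, with Tek above background on no array, and the smooth muscle and pericyte list 0.01, -0.21, -0.26 and 0.02.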

How the data were processed

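Spot intensity came from the deposited 1-colour (Cy3) scanner files, extracted per the file headers with Agilent Feature Extraction 11.0.1.1 for day 2 and 9.5.3.1 for the other days (the submitters' processing notes name 9.5 alone). The authors' deposited value table holds a score per spot; to within rounding it equalled the processed signal as a percentage of the 75th percentile of all spots, negatives being given as 0, and its column medians were 6 or 7. Here spots that the scanner software marked as outliers were removed, processed intensity was scaled to the 75th percentile of each array's 43020 non-control spots, and replicate spots were averaged. Scaled signals below 0.00763, the floor, were raised to it before log2. Each gene was represented by its probe of highest mean. A total of 25905 probes were named through RefSeq accessions, and the remaining ones by the files' own names.

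Tests used limma 3.58.1 in R 4.3.3 with Benjamini-Hochberg adjustment over 19674 genes above background on at least 4 of 8 arrays, a threshold of 0.05, and for the genotype effect 3 residual degrees of freedom. The steps were tested on simulated data. A group not above background gives a nominal fold against the higher of its own signal and the lowest signal above background on that array. That lowest signal is not a detection limit for every probe, so a nominal fold is not a strict bound. On the Dnmt3a-KO array of day 6, for example, Kif23 at 0.0212 was not above background, although dimmer spots there were.

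The 42 genes and all lists were chosen with earlier results of these data known. Values on all arrays are given by rule for the probe with the highest mean signal in each role, for the 2 largest and 2 smallest differences, and for the 2 steepest and 2 flattest slopes; of each other pathway list the 3 largest and 1 smallest are named. Cdk1, Kif11, Nuf2, Col1a1 and Pdgfra were added after their values were seen, and the other mitotic genes are given by their mean. Alternatives covered scaling, background correction, filter, probes per gene, variance model, array weights, block, the deposited score, the floor and leaving out each day.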

Additional observations from a re-analysis of the deposited data

Results flagged for a closer look

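For 5 mitotic genes the difference between Dnmt3a-KO and WT on day 5 was opposite in sign to that on days 2, 4 and 6 and exceeded 0.212 log2 units. That is the SD expected of a difference between single spots of the day 5 arrays, so spot noise alone can exceed it. Over all genes tested, the 75th and 95th percentiles of the day 5 difference were 0.0954 and 0.435. The share of all genes that met this rule was not counted. On day 5 the difference was 0.241 for Bub1, 0.25 for Bub1b, 0.415 for Ndc80, 0.426 for Nuf2 and 0.36 for Anln. With 1 array per genotype and day, the difference between day 5 and the other days was not tested.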

How the results depend on the processing

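All 39 fitted genes kept a mean difference below 0 between Dnmt3a-KO and WT in each setting of the genotype effect in which they were tested (33 of them when every array had to be above background). The median of the 39 ran from -1.02 to -0.6 when each day was left out.

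The count of genes past the limma threshold for the genotype effect, 2 of 19674, was 0 with quantile normalization, with no filter on dim probes, with the mean of all probes, without the day block and with the deposited value table (404 to 2982 at an unadjusted p under 0.05), and 0 to 0 with each day left out (1449 to 2539 unadjusted). It was 35 with normexp, 38 with genes above background on all 8 arrays, 93 with trend and robust variance, 14 with array weights, 128 with day as a random block and 46 with a constant in place of the floor. Of the 39 mitotic genes, 2 passed with trend and robust variance, 1 with array weights and 1 with the constant.

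For the day slope, 8933 genes passed, 0 with the slide as a block (2050 unadjusted) and 0 to 9870 with each day left out; of the mitotic genes 38 passed, 0 with the slide as a block and 0 to 39 with each day left out. Their median slope of -0.62 was -0.37 with normexp, 0.109 with the slide as a block, and -0.804 to -0.0476 with each day left out. The slide block left only the step from day 4 to day 5 to fit, so its loss of the fall was set by the design. With the slide as a block the slope was 0.0656 for Kif23, 0.0925 for Kif4, 0.141 for Mad2l1 and 0.0559 for Racgap1. With each day left out it was -0.354 to 0.0617 for Mad2l1 and -0.281 to 0.0293 for Racgap1, above 0 only without day 2.

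Genes at least 2-fold lower on a single day numbered 2, 0, 0 and 0 on days 2, 4, 5 and 6 with normexp, against 11, 30, 1 and 17, and 3 on day 5 with the deposited value table. The normexp setting also adds 50 intensity units before log2 and uses quantile scaling, which were not separated, while the 75th percentile of an array was 719.5 to 1528.1 units. For the other settings the cause was not tested. The genotype fit itself paired the arrays of a day through the day block.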
